A study of Mus musculus with 40 samples.

Results

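Nucleotide and one-carbon synthesis was followed through 35 mouse genes that encode its enzymes. The genes were chosen by symbol and not by their levels, but with earlier results of these data known. All 35 were found among the 23284 genes of the pI-pC and antibody table and among the 23107 genes of each tamoxifen table. By role they comprise 12 genes of purine synthesis, 4 of pyrimidine synthesis, 7 of deoxynucleotide supply, 4 of salvage and phosphate transfer, 5 of folate one-carbon metabolism and 3 of serine synthesis. All 35 passed the filter on low counts in every comparison, and the lowest count of any of them in any library was 32.

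RNA was sequenced from 2 stages of thymocyte, the early T-cell precursor (ETP) and the later double-negative DN3 cell, sorted from C57BL/6 mice. Zmiz1 is a coactivator of Notch1, the receptor that drives early T-cell development, and the series asks how Zmiz1 and Notch1 act at these stages. DeltaMxCre mice were MxCreZmiz1f/f and their MxCre controls carried MxCre without the floxed Zmiz1. Both received 40 mcg pI-pC every 2 days, 5 times, and were sorted 8 weeks later (3 mice per group). DeltaTamCre mice were Rosa26CreERT2Zmiz1f/f and their TamCre controls carried Rosa26CreERT2 alone. Both received 0.2 mg/g tamoxifen and were sorted after 43 to 44 hours (4 mice per group). The AntiNRR group received 10 mg/kg of an antibody that blocks Notch1 at its negative regulatory region, the IgG group control antibody, and both were sorted after 24 hours (3 libraries per group; the number of mice is not given by the labels, so p-values there measure the spread between libraries). As background, MxCre is driven by an interferon-responsive promoter and Rosa26CreERT2 is expressed broadly, so neither restricts deletion to thymocytes. The deleted mice and their controls received the same inducing agent. Ages are not given by the labels.

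Purines are built stepwise on ribose phosphate up to inosine monophosphate, which Impdh1 or Impdh2 commits to guanine nucleotides and Adss to adenine nucleotides. Pyrimidines are assembled as a free ring by Cad, Dhodh and Umps before Ctps makes the cytosine form. Serine made by Phgdh, Psat1 and Psph gives its side-chain carbon to folate through Shmt1 and Shmt2, and that carbon enters the purine ring and thymidylate. Ribonucleotide reductase (Rrm1, Rrm2), Tyms and their partners turn ribonucleotides into the precursors of DNA. Dividing thymocytes draw on these routes, and inherited defects of purine breakdown are known to deplete T cells.

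Libraries of the pI-pC and antibody sets held 9456818 to 23962395 counts, those of tamoxifen DN3 48127197 to 91659598 and those of tamoxifen ETP 17418638 to 30975324. These 3 sets were made with different kits, and no test joins them. Levels are given as CPM, counts scaled to library size after TMM normalisation within a table. Zmiz1 was lower in each deleted group than in its control without overlap: 113 to 129 against 286 to 349 CPM in DN3 after pI-pC, 58.7 to 114 against 157 to 319 in ETP after pI-pC, 184 to 243 against 301 to 354 in DN3 after tamoxifen, and 120 to 307 against 418 to 461 in ETP after tamoxifen. The labels give CD44+CD25- for DN3 as for ETP, with cKit+ added for ETP, but a list of 10 ETP-stage markers summed to 388 to 1460.3 CPM in ETP libraries and 72.9 to 237 in DN3 libraries. A list of 12 DN3-stage markers summed to 2232 to 10081 CPM in ETP and 8984 to 14748 in DN3. The highest ETP values of that second list, 9061 to 10081 CPM, were those of DeltaMxCre ETP, against 4698 to 5379 in MxCre ETP. In a bulk sample, fewer cells of a type and less RNA per cell cannot be told apart.

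**Figure D1:**
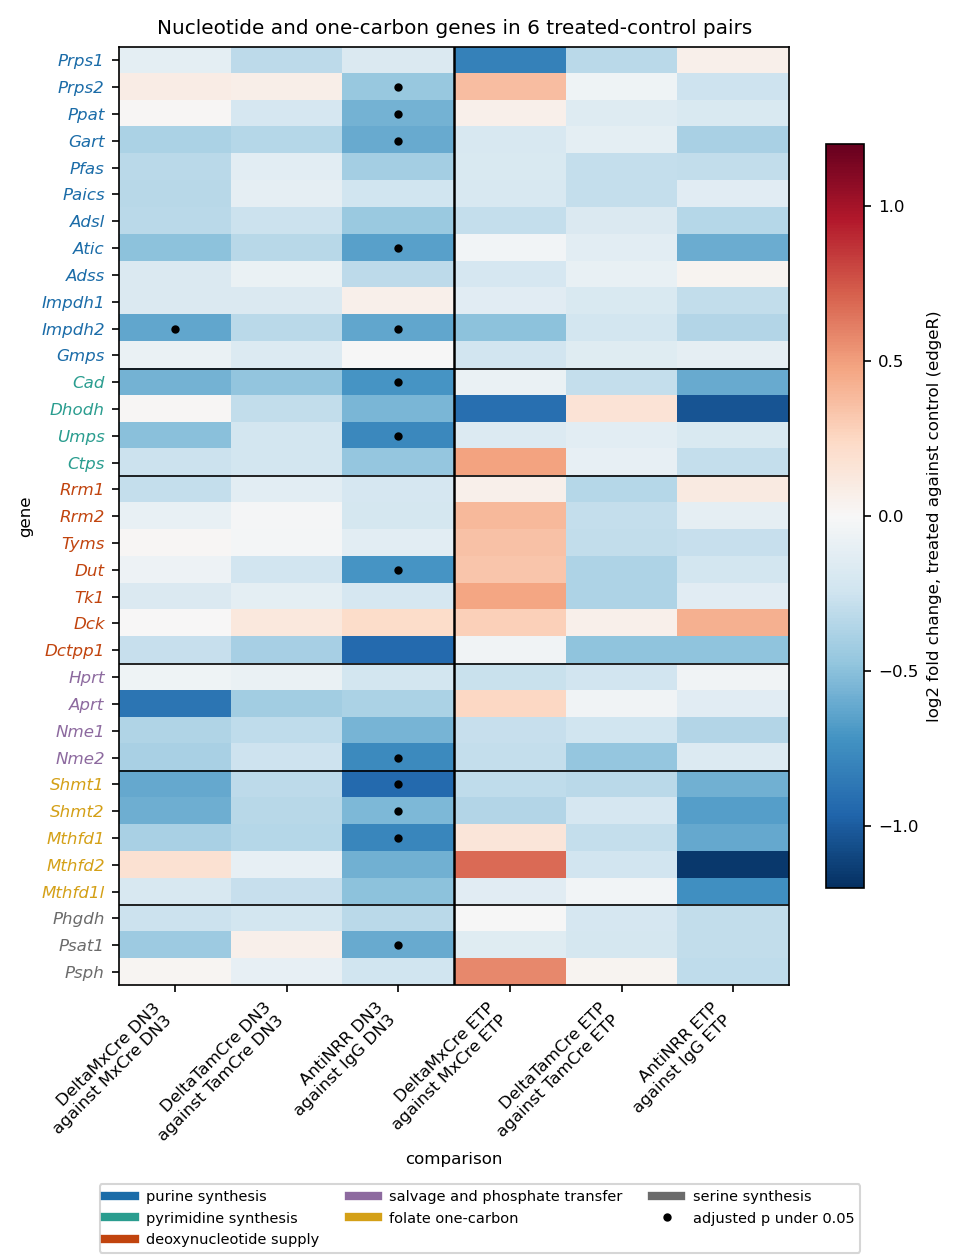
Log2 fold change (colour; treated or deleted against control, edgeR) of each of the 35 genes (vertical axis, coloured by role) in the 6 treated-control pairs (horizontal axis, DN3 left of the heavy line and ETP right of it). Dots mark an adjusted p under 0.05: 13 in AntiNRR DN3, all lower, 1 in DeltaMxCre DN3 (Impdh2, lower), and none in the 3 ETP pairs or in DeltaTamCre DN3.

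Blocking Notch1 for 24 hours lowered the transcripts of a broad set of these enzymes in DN3 cells. Of the 35 genes, 13 were called lower in AntiNRR DN3 than in IgG DN3 and 0 higher (edgeR quasi-likelihood test, Benjamini-Hochberg adjusted p under 0.05 over the 12658 genes tested), where 2.96% of all genes were called lower and 2.65% higher. The 13 were 5 of 12 purine genes, 2 of 4 pyrimidine genes, 1 of 7 deoxynucleotide genes, 1 of 4 salvage genes, 3 of 5 folate genes and 1 of 3 serine genes. The median log2 fold change was -0.47 over the 35 genes and -0.01 over all genes, and 33 of the 35 lay below 0. The IgG and AntiNRR libraries did not overlap, with AntiNRR lower, for 23 of the 35, against 11.5% of all genes.

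The 5 purine genes that fell lie at the entry, in the middle and at the guanine branch of the route. Impdh2, which oxidises inosine monophosphate towards guanine nucleotides, stood at 200.1, 171 and 184 CPM in the IgG DN3 libraries and at 128, 114 and 122 in the AntiNRR DN3 libraries. Every treated library lay below every control, and Impdh2 fell by 0.62 on the log2 scale (SE 0.112, adjusted p = 0.00113 in edgeR). Atic, the bifunctional enzyme that closes the purine ring, fell from 177, 153 and 142 CPM to 88.3, 105 and 109, by 0.66 (SE 0.125, adjusted p = 0.00184). Gart, which catalyses several early steps and uses formyl folate, fell from 243, 233 and 220.3 to 123, 155 and 183 CPM, by 0.61 (SE 0.124, adjusted p = 0.00347). At the entry of the route, Prps2 makes the activated ribose phosphate and Ppat commits it to purines. Prps2 was 287, 311 and 269 CPM in controls and 203, 221 and 212 after the antibody, a fall of 0.46 (SE 0.0998, adjusted p = 0.00615). Ppat was 112, 126 and 104 against 75.7, 63.9 and 93.4 CPM, a fall of 0.57 (SE 0.145, adjusted p = 0.0208). Neither overlapped between the groups.

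The other 7 purine genes did not pass. Pfas, Paics and Adsl lay lower without overlap, at log2 fold changes of -0.41, -0.24 and -0.45 (adjusted p = 0.0836, 0.253 and 0.0910). Adss, the first step to adenine nucleotides, had -0.31 (adjusted p = 0.195) and Prps1 had -0.18 (adjusted p = 0.756), both with overlapping libraries. Gmps, which completes guanine monophosphate, measured 149, 173 and 182 CPM in IgG DN3 and 180.0, 152 and 174 in AntiNRR DN3, a log2 fold change of -0.0033 (SE 0.114). Impdh1 measured 229, 193 and 186 against 212, 204 and 223 CPM, a log2 fold change of 0.06 (SE 0.108). The ratio of Impdh2 to Impdh1, taken per kilobase of transcript, was therefore 1.22, 1.24 and 1.39 in the IgG libraries and 0.846, 0.784 and 0.769 in the AntiNRR libraries. Per kilobase, Impdh2 was the higher of the pair in each control library and Impdh1 in each treated library. That order in controls depends on the transcript lengths used, 1.858 kb for Impdh2 and 2.6 kb for Impdh1. In CPM not divided by length, Impdh1 was the higher in each IgG library too. The fall of the ratio does not depend on the lengths.

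Positions and promoters are given for the genes that carried this result. In GRCm38, Impdh2 lies on the plus strand at chr9:108560286-108565584, Atic on the plus strand at chr1:71557150-71579631, Gart on the minus strand at chr16:91621186-91646952, Cad on the plus strand at chr5:31054780-31078479 and Mthfd1 on the plus strand at chr12:76255298-76319803. RefSeq promoter windows (GRCm38.p6, 250 bases before to 50 after a start) were found for 33 of the 35 genes. They were searched on both strands for the E-box CACGTG, bound by Myc and related factors, for the E2F letters TTCCCGC or TTGGCGC, and for the Rbpj letters TGGGAA, bound by the DNA-binding partner of Notch1. The reverse of TGGGAA and TTCCCGC begin with the same letters but no stretch was counted for both. The E-box was present in 5 of 33 members (15.2%) and in 8.09% of 27025 genes. E2F letters were present in 9 of 33 (27.3%) and in 7.79% of genes, and the Rbpj letters in 5 of 33 (15.2%) and in 28.3% of genes. Among the 13 genes called lower after the antibody, 2 held the E-box, 5 the E2F letters and 2 the Rbpj letters. A match describes the letters of the window and shows no binding.

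The 250 bases before the RefSeq start of Atic (plus strand, chr1:71556906-71557155) and of Mthfd1 (plus strand, chr12:76254982-76255231) are shown because these genes fell in AntiNRR DN3 under every setting tried and each holds 1 of the motifs, in capitals: the E-box in Atic and the E2F letters, reversed, in Mthfd1.
Atic: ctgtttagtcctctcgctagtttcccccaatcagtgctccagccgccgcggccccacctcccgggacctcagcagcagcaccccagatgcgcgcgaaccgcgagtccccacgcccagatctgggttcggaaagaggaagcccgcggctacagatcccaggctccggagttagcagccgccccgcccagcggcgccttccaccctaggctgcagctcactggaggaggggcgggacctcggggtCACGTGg
Mthfd1: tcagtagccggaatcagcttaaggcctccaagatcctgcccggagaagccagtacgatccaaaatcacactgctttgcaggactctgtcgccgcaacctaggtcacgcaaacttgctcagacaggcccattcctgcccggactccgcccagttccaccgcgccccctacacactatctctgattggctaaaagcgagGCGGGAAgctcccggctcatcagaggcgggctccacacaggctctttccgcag

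The E-boxes of 4 members are set side by side as 30-base stretches on the gene's own strand, with the motif in capitals: Impdh2 (plus strand, chr9:108560314-108560343), Paics (plus strand, chr5:76951087-76951116), Tyms (minus strand, chr5:30073669-30073698) and the Nme1 match nearest its longest annotated start (minus strand, chr11:93968273-93968302).
Impdh2: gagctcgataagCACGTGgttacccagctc
Paics: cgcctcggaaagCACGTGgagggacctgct
Tyms: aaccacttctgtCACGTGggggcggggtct
Nme1: gctgcggggaacCACGTGaggccggggagc
Of these 4, Impdh2 was called lower in AntiNRR DN3 and Paics, Tyms and Nme1 were not. The motif lies 110 bases before the RefSeq start of Impdh2, 203 before that of Paics, 61 before that of Tyms, 18 before that of Nme1 and 7 before that of Atic. The GENCODE spans, used for the gene positions above, begin elsewhere. By them the Impdh2 and Nme1 matches lie inside the gene, and the Atic match covers the start of the gene.

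Of the pyrimidine genes, Cad and Umps fell in AntiNRR DN3. Cad carries the first 3 activities of the route in 1 protein, and it fell from 183, 211 and 177 CPM to 90.9, 123 and 141, by 0.71 on the log2 scale (SE 0.135, adjusted p = 0.00206). Umps, which completes uridine monophosphate, fell from 83.2, 70.2 and 71.3 to 51.1, 33.8 and 47.9 CPM, by 0.77 (SE 0.177, adjusted p = 0.00932). Both showed no overlap between groups. Dhodh, the mitochondrial step, and Ctps, the cytidine step, also lay lower in every treated library, at -0.54 and -0.47, but did not pass (adjusted p = 0.387 and 0.194).

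Of the folate genes, Mthfd1, Shmt1 and Shmt2 fell. Mthfd1, the cytosolic enzyme that makes formyl folate for purines, had the lowest p of the 35: it was 137, 157 and 142 CPM in IgG DN3 and 73.2, 77.4 and 105 in AntiNRR DN3, a fall of 0.79 (SE 0.138, adjusted p = 0.000797). The cytosolic serine hydroxymethyltransferase Shmt1 fell from 52.1, 75.7 and 59.9 to 30.8, 29.5 and 38.7 CPM, by 0.93 (SE 0.193, adjusted p = 0.00386). Its mitochondrial counterpart Shmt2 fell from 113, 97.9 and 111 to 55.5, 76.4 and 92.2 CPM, by 0.54 (SE 0.158, adjusted p = 0.0466). The mitochondrial genes Mthfd2 and Mthfd1l did not pass. Mthfd2 measured 25.6, 29.7 and 17.1 CPM in controls and 11.4, 12.9 and 24.8 after the antibody, with 1 treated library inside the control range (log2 fold change -0.57, adjusted p = 0.374).

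In serine synthesis Psat1 fell from 69.9, 65.4 and 57.6 to 35.9, 41.7 and 50.6 CPM, by 0.60 (SE 0.178, adjusted p = 0.0466). Phgdh, the first enzyme of the route, was 287, 313 and 288 CPM in IgG DN3 and 216, 232 and 267 in AntiNRR DN3. Its groups did not overlap, but the log2 fold change of -0.32 (SE 0.103) did not pass (adjusted p = 0.0697). Psph overlapped between groups. Among the salvage and phosphate transfer genes, Nme2, a nucleoside diphosphate kinase, fell from 57.9, 47.8 and 48.8 to 27.2, 26.8 and 37.6 CPM, by 0.77 (SE 0.200, adjusted p = 0.0227). Nme1, Hprt and Aprt were lower without overlap but did not pass in edgeR, at -0.55, -0.22 and -0.38 (adjusted p = 0.0647, 0.475 and 0.509). DESeq2 called Nme1 (adjusted p = 0.0353). Nme2 shares 48.9% of its exon bases with an annotated read-through gene that also covers Nme1, and Ppat and Paics overlap on opposite strands by 272 bases. Gart shares 19.7% of its exon bases with Gm15964 on the opposite strand. The sources used here do not state whether strand was used in counting, so the split of reads between these neighbours is uncertain.

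Most deoxynucleotide genes did not pass in AntiNRR DN3. Dut, which removes uracil precursors and supplies thymidylate synthesis, was the only called gene of the 7, at 81.6, 90.8 and 84.6 against 51.7, 40.5 and 66.0 CPM, a fall of 0.71 (SE 0.169, adjusted p = 0.0117). The small subunit of ribonucleotide reductase, Rrm2, was 53.4, 58.3 and 54.5 CPM in IgG DN3 and 25.2, 31.8 and 88.1 in AntiNRR DN3. Tk1, the thymidine kinase of dividing cells, was 14.9, 19.8 and 15.1 against 5.28, 8.87 and 29.6 CPM. For both genes AntiNRR DN3 1 and 2 lay below every control and AntiNRR DN3 3 above every control. Without AntiNRR DN3 3, Rrm2 had a log2 fold change of -0.98 (adjusted p = 0.00580 in edgeR). In that fit 18 of the 35 genes were called, and 677 over all genes. Leaving out any other library instead gave Rrm2 log2 fold changes of -0.23 to 0.10 (adjusted p = 0.935 to 0.992 in edgeR). Tyms, which makes thymidylate, was 24.1, 45.4 and 39.1 against 15.8, 40.6 and 44.1 CPM and overlapped. Dctpp1, which clears modified cytidine triphosphates, was at 16.3, 12.9 and 11.3 against 7.72, 4.76 and 8.97 CPM. It had a change of the same size as Shmt1, -0.93, with an SE of 0.380 and adjusted p = 0.190. Dck, the deoxycytidine kinase, was the other gene above 0 beside Impdh1 (log2 fold change 0.22, adjusted p = 0.380).

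**Figure D2:**
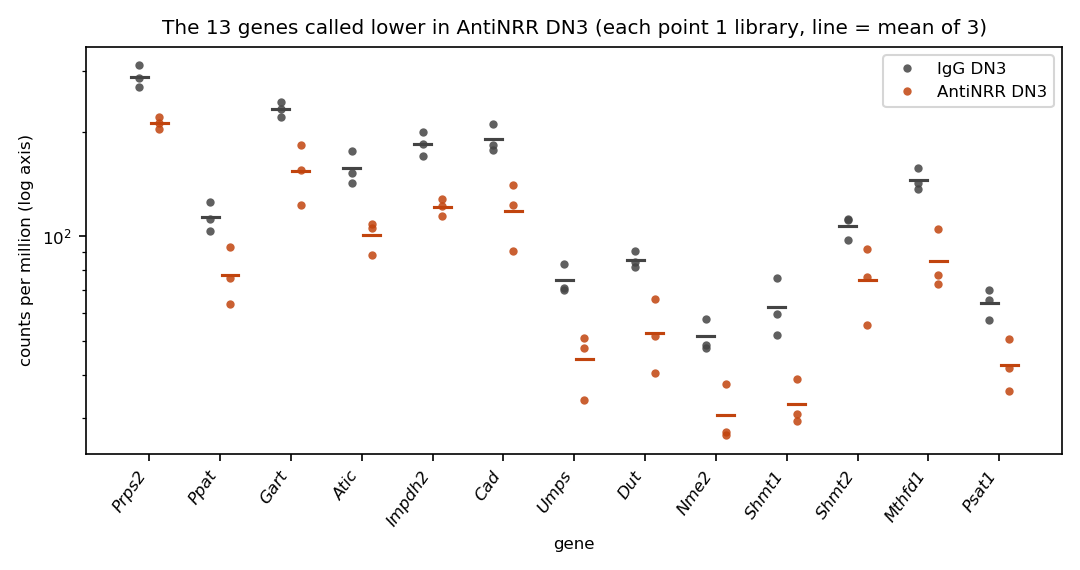
CPM on a log axis (vertical) of the 13 genes called lower in AntiNRR DN3 (horizontal), with each of the 3 IgG DN3 libraries in grey and each of the 3 AntiNRR DN3 libraries in red; lines are group means. For all 13 genes the red points lie below the grey ones, as for Mthfd1 at 73.2 to 105 against 137 to 157 CPM.

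Of the 13 calls, 5 were kept when any of the 6 libraries was left out: Mthfd1, Impdh2, Atic, Cad and Gart. The count of called genes ranged from 6, without IgG DN3 2, to 18, without AntiNRR DN3 3, and was 8 without IgG DN3 1 and 7 without AntiNRR DN3 2. Over all genes, 710 were called with every library and 677 without AntiNRR DN3 3. Shmt2 and Psat1 each lost their call in 5 of the 6 (highest adjusted p = 0.205 and 0.196), as did Nme2 (0.137). DESeq2 also called 13 lower (3.22% of all genes), 12 of them shared.

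Other measures moved in the same libraries. Myc, a transcription factor that many of these genes are known to respond to, was 170.3, 108 and 112 CPM in IgG DN3 and 67.8, 68.0 and 62.8 in AntiNRR DN3 (log2 fold change -0.99, SE 0.156, adjusted p = 0.000253). Of 20 DNA replication genes, 2 were called lower, with a median of -0.40 and a summed level of 1749.7 to 2703 against 2506 to 2849 CPM. The 12 DN3-stage markers summed to 9419 to 10668 CPM in AntiNRR DN3 and 14621 to 14748 in IgG DN3, and 7 of the 12 were called lower. The 8 natural killer and innate lymphoid markers summed to 228 to 258 against 121 to 152 CPM, with 1 called higher and Klrb1c, Ncr1 and Klrd1 at 0 counts in both groups. The 10 ETP-stage markers summed to 197 to 237 against 137 to 157 CPM, with 1 called higher and Cd34, Hoxa9, Lyl1 and Lmo2 at 0 counts in AntiNRR DN3. The 8 double-positive and mature thymocyte markers, all detected, summed to 736 to 821 against 556 to 656 CPM, with 1 called higher. Rn45s, the ribosomal RNA precursor, took 4.77% to 6.80% of counts in AntiNRR DN3 and 2.75% to 3.74% in IgG DN3, without overlap. Malat1, a nuclear RNA whose share can follow RNA quality, took 1.17% to 1.33% and 1.06% to 1.39%, with overlap. The part of these shifts in the result was not tested.

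The rest of the pathway, from a list of 68 genes of interconversion, breakdown, the folate and methionine cycles and carriers, gave 2 calls among the 58 tested in AntiNRR DN3. Over all genes, 2.96% were called lower and 2.65% higher. Mat2a, which makes S-adenosylmethionine, fell from 250.4, 273 and 298 to 212, 187 and 168 CPM (log2 fold change -0.54, SE 0.110, adjusted p = 0.00324). Ctps2, the second cytidine triphosphate synthase, rose from 80.6, 85.1 and 90.0 to 113, 132 and 110 CPM, by 0.46 (SE 0.128, adjusted p = 0.0346). The median over the 58 genes was -0.17, and 36 of them lay below 0. The 35 synthesis genes and these 58 share the same libraries, and the difference between the lists was not tested.

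Deletion of Zmiz1 with pI-pC lowered Impdh2 in DN3. Impdh2 was 249, 225 and 277 CPM in MxCre DN3 and 191, 158 and 140.0 in DeltaMxCre DN3, without overlap, and fell by 0.62 (SE 0.143, adjusted p = 0.0413 in edgeR). It was the only one of the 35 called, all others being between -0.87 and 0.18, while 0.458% of the 12675 genes tested were called lower. DESeq2 called 5 lower (Impdh2, Shmt2, Shmt1, Cad and Aprt), against 1.55% of genes. The Impdh2 call was lost without any 1 of 4 libraries: its adjusted p was 0.0864 without MxCre DN3 1, 0.0525 without MxCre DN3 2, 0.228 without DeltaMxCre DN3 2 and 0.275 without DeltaMxCre DN3 3. The ratio of Impdh2 to Impdh1 per kilobase was 1.61, 1.37 and 1.54 in MxCre DN3 and 1.21, 1.12 and 0.989 in DeltaMxCre DN3, again without overlap.

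Over the 35 genes, 28 lay below 0 in DeltaMxCre DN3 and the median was -0.26, against -0.01 for all genes. Groups did not overlap, with DeltaMxCre lower, for 13 genes, against 10.4% of all genes. Aprt, which salvages adenine, had the largest change, from 32.0, 26.1 and 31.9 to 22.3, 15.3 and 11.5 CPM (log2 fold change -0.87, SE 0.260, adjusted p = 0.109). Shmt1 followed at 83.9, 81.9 and 101 against 64.2, 64.8 and 45.2 CPM (-0.61, SE 0.170, adjusted p = 0.0907). Shmt2 was 147, 133 and 199 against 114, 107 and 98.1 CPM (-0.59, adjusted p = 0.0773). Cad was 253, 275 and 373 against 236, 181 and 188 CPM (-0.57, adjusted p = 0.0919). For these 4 genes every deleted library lay below every control, but none passed in edgeR.

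Other genes overlapped between MxCre DN3 and DeltaMxCre DN3. Ppat was 107, 97.7 and 158 CPM in controls and 117, 128 and 123 after deletion (log2 fold change 0.02). Rrm2 was 100.1, 86.5 and 236 against 170.1, 121 and 105 CPM (-0.09), and Tyms 64.3, 34.9 and 83.5 against 70.9, 54.6 and 59.1 CPM (0.02). Mthfd2 was 37.8, 38.1 and 54.4 against 62.7, 35.4 and 49.6 CPM (0.18). Phgdh was 307, 320 and 339 against 283, 227 and 299 CPM, without overlap (-0.26, adjusted p = 0.369). MxCre DN3 3 held the highest sum of the 35 genes in this pair, 5977 CPM, against 4453 to 4595 in the other controls and 3829.6 to 4639.5 after deletion, and the highest sum of DNA replication genes, 5830.45 CPM. Without MxCre DN3 3 the median of the 35 was -0.12. Malat1's share of counts was 0.324% to 0.711% in the MxCre DN3 controls and 0.961% to 1.33% after deletion, and all 20 DNA replication genes lay below 0 (median -0.29, 0 called). Myc had a log2 fold change of -0.84 (adjusted p = 0.211). Rn45s took 4.71% to 5.07% of counts after deletion and 6.76% to 8.82% in controls, without overlap. The 8 double-positive and mature thymocyte markers, all detected, summed to 591 to 670.2 against 408 to 507 CPM, also without overlap, with 1 called higher. The part of these shifts in the result was not tested.

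At 43 to 44 hours after tamoxifen, no gene of the 35 was called in DeltaTamCre DN3, where 0.0827% of 13298 genes were called in either direction. At an unadjusted p under 0.05, 17 of the 35 were lower and 0 higher, against 8.26% and 7.29% of all genes, and DESeq2 called 5 lower (Dctpp1, Prps1, Nme1, Aprt and Impdh2) against 1.46% of genes. The median was -0.22, against 0.01 for all genes, and 32 of 35 lay below 0. Groups did not overlap, with DeltaTamCre lower, for 7 genes, against 5.81% of all genes. Dctpp1 was 149.6, 117, 122 and 119 CPM in TamCre DN3 and 96.8, 99.0, 91.0 and 99.7 in DeltaTamCre DN3 (-0.40, SE 0.085, adjusted p = 0.121 in edgeR and 0.00676 in DESeq2), so all 4 deleted libraries lay below all 4 controls. Aprt was 126, 97.3, 105 and 98.1 against 66.8, 78.8, 77.0 and 97.7 CPM (-0.41, adjusted p = 0.164). The largest change, that of Cad, overlapped: 593, 302, 358 and 380 against 245, 396, 255 and 283 CPM (-0.47, SE 0.221, adjusted p = 0.347).

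The remaining examples in tamoxifen DN3 did not pass. Impdh2 was 560, 438, 494 and 517 CPM in TamCre DN3 and 370, 454, 393 and 391 in DeltaTamCre DN3 (-0.32, SE 0.094, adjusted p = 0.170). Only DeltaTamCre DN3 2 lay inside the control range. Shmt2 was 638, 457, 493 and 535 against 397, 443, 390 and 454 CPM, without overlap (-0.33, adjusted p = 0.190). Phgdh, with the highest mean of the 35 per kilobase in these controls, was 896, 682, 744 and 779 against 548, 704, 672 and 731 CPM (-0.22). Ppat (161, 117, 139 and 138 against 102, 150, 118 and 112 CPM), Mthfd2 (98.2, 73.9, 83.4 and 86.0 against 81.5, 89.2, 77.2 and 71.7 CPM), Rrm2 (320, 279, 345 and 329 against 388, 360, 264 and 252 CPM) and Tyms (132, 133, 145 and 137 against 167, 143, 113 and 114 CPM) overlapped. Beside these values, Myc was 376 to 545 CPM in DeltaTamCre DN3 and 603 to 665 in TamCre DN3 (-0.43, adjusted p = 0.128). The 8 natural killer and innate lymphoid markers summed to 238 to 268 against 305 to 326 CPM, with 1 called lower and Klrd1 at 0 counts in both groups. The 8 double-positive and mature thymocyte markers, all detected, summed to 261 to 303 against 201 to 256 CPM, with 0 called. None of these 3 measures overlapped, and their part in the result was not tested.

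The 3 DN3 pairs share no library, so their directions can be set side by side. In all 3, 26 of the 35 genes lay below 0 (74.3%), against 21.6% of the 11810 genes tested in each. An unadjusted p under 0.05 with a lower level in all 3 was met by 10 genes (28.6%), against 1.06% of all genes: Gart, Adsl, Atic and Impdh2 of purine synthesis, Umps of pyrimidine synthesis, the kinases Nme1 and Nme2, and Shmt1, Shmt2 and Mthfd1 of the folate route. No deoxynucleotide or serine gene was among the 10. Dck was the only gene above 0 in all 3. This is a description of the 35 genes, and no test of the list was made.

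Whether the deletion and the antibody differed in DN3 was tested with an interaction term between pI-pC and antibody pairs. None of the 35 was called in edgeR, where 1.23% of 13557 genes were, and 3 had an unadjusted p under 0.05 (12.5% of genes), while DESeq2 called 1 (2.45% of genes). The nearest was Prps2, which was 258, 281 and 268 CPM in MxCre DN3 and 293, 286 and 277 in DeltaMxCre DN3 (log2 fold change 0.09), whereas it fell after the antibody. The difference of the effects was 0.52 (SE 0.148, adjusted p = 0.0802 in edgeR and 0.0101 in DESeq2). Without MxCre DN3 3, 2 of the 35 were called, while calls over all genes rose from 167 to 290. In ETP, 0 of 35 were called for the same difference (0.082% of genes in edgeR; 3 of the 35 and 6.4% of genes at an unadjusted p under 0.05; 0 in DESeq2, against 0.707% of genes). The largest was Mthfd2, at 1.85 (SE 0.583, adjusted p = 0.480).

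**Figure D3:**
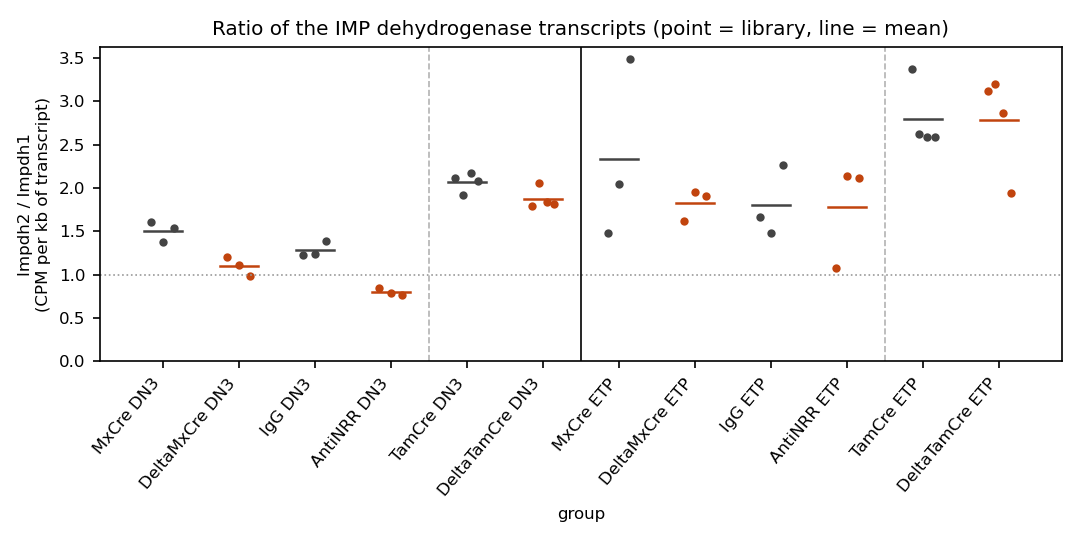
Ratio of Impdh2 to Impdh1 in CPM per kilobase of transcript (vertical) in each library of the 12 groups (horizontal; controls grey, treated or deleted red, lines are means). In DN3 the AntiNRR libraries lie at 0.769 to 0.846 and the IgG libraries at 1.22 to 1.39, while in ETP the same 2 groups overlap.

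In ETP none of the 3 pairs gave a call among the 35 genes, and the groups overlapped for most. In AntiNRR ETP, 0 of 12568 genes were called in all (0%), 9 of the 35 had an unadjusted p under 0.05 with a lower level and 1 with a higher level, against 2.86% and 2.61% of all genes, and DESeq2 called 0 (0.301% of genes). The 9 included all 5 folate genes. Mthfd2, the mitochondrial enzyme of proliferating cells, was 38.9, 40.2 and 53.1 CPM in IgG ETP and 14.1, 34.1 and 10.9 in AntiNRR ETP, without overlap (-1.16, SE 0.378, adjusted p = 0.736). Mthfd1l was 65.4, 83.6 and 80.2 against 35.3, 67.0 and 35.6 CPM (-0.73, adjusted p = 0.770). Shmt2 was 158, 101 and 174 against 70.6, 107 and 96.6 CPM (-0.66, adjusted p = 0.736). AntiNRR ETP 2 was the highest of the treated libraries for all 3 and lay inside the control range for the latter pair. Dhodh was 24.3, 27.0 and 32.9 against 9.99, 12.5 and 18.4 CPM, without overlap (-1.04, SE 0.348, adjusted p = 0.736).

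The median over the 35 was -0.29 in AntiNRR ETP, against 0.01 for all genes, and 31 lay below 0. Groups did not overlap, with AntiNRR lower, for 7 of the 35 (5.94% of all genes) and, with AntiNRR higher, for Dck alone (0.43, adjusted p = 0.848; 5.86% of all genes). Impdh2 was 238, 247 and 330 CPM in IgG ETP and 159, 280 and 199 in AntiNRR ETP, and overlapped (-0.35, SE 0.209). Cad was 160, 209 and 241 against 96.4, 186 and 119 CPM (-0.60, adjusted p = 0.841). Phgdh was 412, 414 and 419 against 301, 329 and 383 CPM, without overlap (-0.30, adjusted p = 0.947). Ppat was 100.4, 99.5 and 151 against 78.0, 128 and 103 CPM, Rrm2 88.1, 67.4 and 152 against 72.6, 140 and 72.0, and Tyms 58.1, 48.4 and 78.6 against 45.2, 60.0 and 47.9. All 3 overlapped. The effect of the antibody in ETP minus that in DN3 was called for 0 of 35 genes (1 of the 35 and 5.46% of genes at an unadjusted p under 0.05; 0% of 13603 genes in edgeR; 0 of the 35 and 0.0434% of genes in DESeq2), and leaving out AntiNRR ETP 2 moved its median from 0.16 to -0.09. The smaller number of calls in ETP is thus not shown to be a smaller effect. Myc was 126 to 177 CPM in IgG ETP and 38.7 to 95.7 in AntiNRR ETP (adjusted p = 0.675). The 12 DN3-stage markers, all detected, summed to 5235 to 7852 CPM in IgG ETP and 2232 to 4235 in AntiNRR ETP, without overlap, with 0 called. Myeloid markers summed to 77.3 to 330.0 against 88.8 to 501 CPM, with overlap. The part of these in the result was not tested.

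After pI-pC, 0 of the 35 were called in DeltaMxCre ETP (0.0416% of 12010 genes were called; 1 of the 35 and 5.56% of genes at an unadjusted p under 0.05; DESeq2 0, against 0.865% of genes). That gene, Prps1, was 68.3, 71.4 and 93.1 CPM in MxCre ETP and 52.0, 35.1 and 45.3 in DeltaMxCre ETP, the only one whose groups did not overlap (-0.81, SE 0.264, adjusted p = 0.643; 6.39% of all genes lay lower without overlap). The ratio of Prps2 to Prps1 per kilobase was 1.23, 1.33 and 1.54 in MxCre ETP and 3.00, 3.72 and 2.84 in DeltaMxCre ETP, the latter inside the range of 2.34 to 3.37 of MxCre DN3 save for 1 library. Dhodh was 19.0, 26.7 and 17.4 against 17.6, 1.95 and 14.4 CPM (-0.90, SE 0.651), with DeltaMxCre ETP 2 alone far below the rest. Mthfd2 was 17.9, 39.1 and 59.7 against 55.8, 76.8 and 53.7 CPM (0.68, SE 0.377).

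The spread within MxCre ETP was wide for most of the 35. MxCre ETP 3 had the highest sum, 7722 CPM against 3858 and 4858, the highest DNA replication sum, 8379.6 CPM, and the lowest Malat1 share, 0.0777% against 0.422% and 0.484%. Impdh2 was 234, 306 and 544 CPM there, and 241, 222 and 301 in DeltaMxCre ETP. Cad was 186, 193 and 357 against 234, 192 and 266, Ppat 92.6, 88.4 and 170.1 against 141, 109 and 116, and Shmt2 99.7, 156 and 265 against 136, 132 and 138. Rrm2 was 72.6, 142 and 262 against 190, 188 and 242, Tyms 55.1, 49.1 and 73.9 against 84.8, 58.6 and 83.2, and Phgdh 329, 342 and 559 against 387, 354 and 476. In each of these but Tyms, MxCre ETP 3 was the highest of the 6 libraries. The median over the 35 was -0.14 with it and 0.27 without it, so the direction of this comparison rests on 1 library. Of the marker lists, the ETP-stage sum was 388 to 496 CPM in DeltaMxCre ETP and 795 to 1093 in MxCre ETP, the natural killer sum 93.1 to 141 against 189 to 440.1 and the myeloid sum 48.7 to 82.2 against 84.7 to 205, each without overlap and with 0 called. S100a8 was at 0 counts in both groups. The DN3-stage sum, given above, was higher after deletion, with 3 of the 12 called higher. The part of these differences in the values of the 35 genes was not tested. The deletion effect in ETP minus that in DN3 was called for 0 of the 35 (0.00746% of 13406 genes; 2 of the 35 and 5.52% of genes at an unadjusted p under 0.05; DESeq2 0, against 0.353% of genes). The largest such difference was that of Aprt, 1.12 (SE 0.468, adjusted p = 0.866), and the median was 0.24.

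After tamoxifen, 0 of the 35 were called in DeltaTamCre ETP, where 0 of 12924 genes were called (0%; 1 of the 35 and 4.95% of genes at an unadjusted p under 0.05; 0 in DESeq2, against 0.0472% of genes). The median was -0.21, against 0.03 for all genes, and 32 lay below 0, with no gene free of overlap (3.99% of all genes were). DeltaTamCre ETP 1 was the lowest of the 8 libraries in its sum over the 35 genes, 2422 CPM against 3223 to 4529 in the other deleted libraries and 3956 to 4145 in controls. It also had the lowest DNA replication sum, 2232 CPM, and a Malat1 share of 1.27%. Without it the median was -0.06. Markers of double-positive and mature thymocytes summed to 202 to 1646 CPM in DeltaTamCre ETP and 288 to 827 in TamCre ETP, and natural killer markers to 95.1 to 969 against 140 to 459, with overlap. Myc was 139 to 198 CPM after deletion and 204 to 219.9 in controls, without overlap (-0.32, adjusted p = 0.907). The part of these in the result was not tested. Dctpp1 was 26.1, 34.3, 23.5 and 22.4 CPM in TamCre ETP and 15.1, 26.7, 17.1 and 17.1 in DeltaTamCre ETP (-0.48, SE 0.224). Nme2 was 103, 124, 103 and 89.6 against 77.5, 104, 64.8 and 58.2 (-0.46, SE 0.180), and Dut 166, 189, 180 and 166 against 61.3, 200.1, 161 and 119 (-0.37, SE 0.292). All 3 overlapped.

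The examples in tamoxifen ETP were lowest in DeltaTamCre ETP 1. Impdh2 was 237, 209, 221 and 226 CPM in controls and 146, 229, 210 and 180 after deletion. Cad was 250, 225, 236 and 241 against 164, 236, 199 and 183, and Shmt2 153, 161, 147 and 152 against 90.8, 170, 139 and 133. Rrm2 was 121, 139, 160 and 135 against 48.0, 159, 142 and 106, Tyms 56.3, 62.1, 65.4 and 61.1 against 31.4, 72.1, 44.7 and 51.5, and Phgdh 293, 301, 294 and 294 against 156, 377, 268 and 230. Ppat was 86.1, 95.1, 90.0 and 81.4 against 58.3, 103, 90.0 and 65.6, and Mthfd2 40.5, 55.3, 44.5 and 33.9 against 22.1, 36.5, 53.4 and 36.6. For each of the 8 the deleted libraries spread more widely than the controls and overlapped them.

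**Figure D4:**
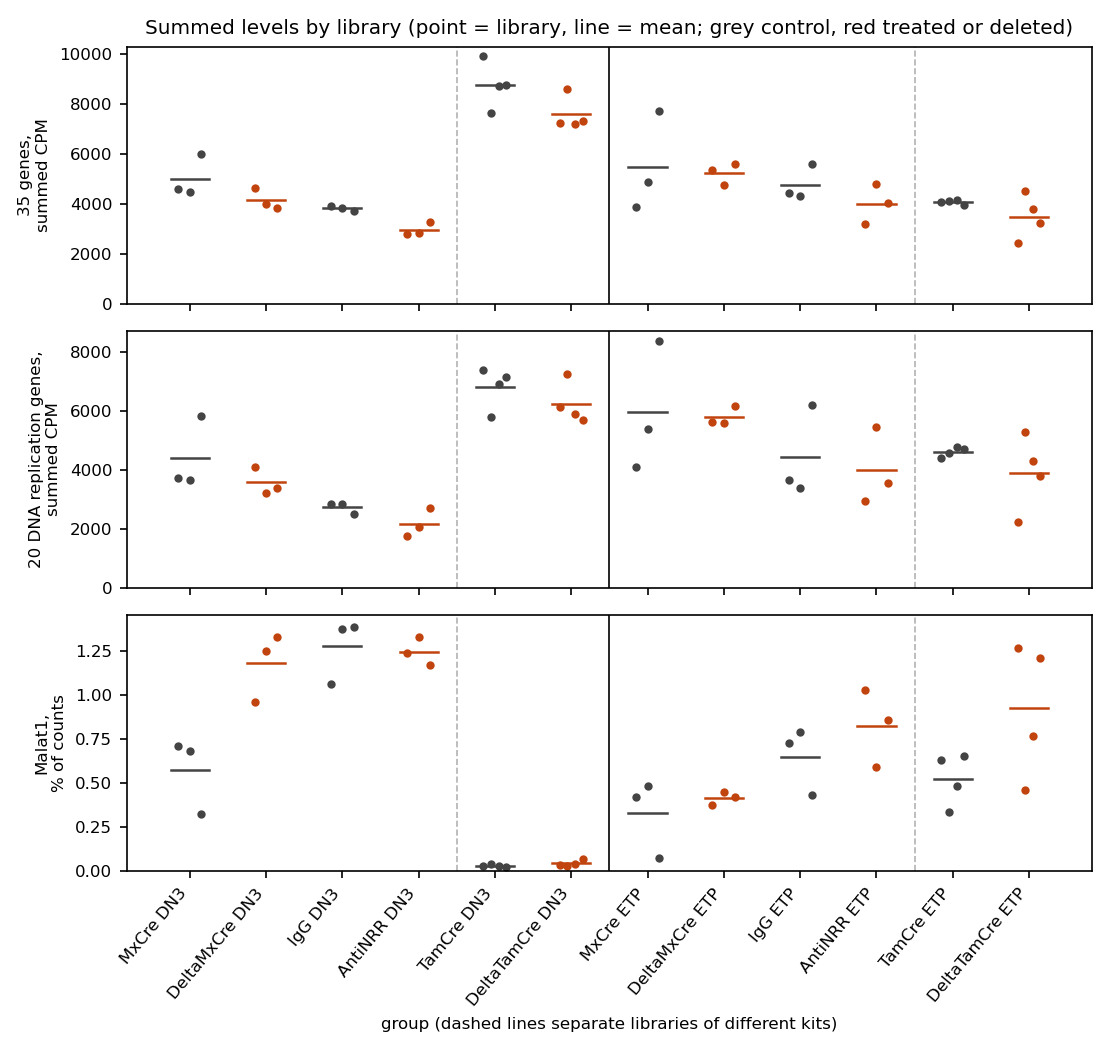
Summed CPM of the 35 genes (top), summed CPM of 20 DNA replication genes (middle) and Malat1 as a percentage of counts (bottom) in each library of the 12 groups (horizontal; controls grey, treated or deleted red, lines are means). Libraries on either side of a dashed line were made with different kits. MxCre ETP 3 (7722 CPM), MxCre DN3 3 (5977) and DeltaTamCre ETP 1 (2422) stand apart from their groups.

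The stage comparison asks how the 35 genes differ between ETP and DN3 with Zmiz1 and Notch1 left intact. It was made in the IgG and in the MxCre libraries, which are also the controls above. By the labels, each ETP library came from fewer cells than each DN3 library, 5 to 20 against 100 to 400 kilocells. RNA input (10 ng) and PCR cycles (16) were the same at both stages of these sets. Cell number thus changed together with stage, and its part in the differences between ETP and DN3 was not tested. In IgG libraries, 12 of the 35 were called higher in ETP and 0 lower, where 7.6% of 12720 genes were called higher and 7.12% lower. DESeq2 called 11 higher (8.6% of genes). The deoxynucleotide genes stood out by count: 6 of 7 were called (Rrm1, Rrm2, Tyms, Dut, Tk1 and Dctpp1), with a median of 0.89. Of these, only Dut and Tk1 kept the call when any of the 6 libraries was left out. Rrm1 kept it in 3 of the 6 fits, Rrm2 and Tyms in 2 and Dctpp1 in 1. The others were Paics and Impdh2 of the 12 purine genes, Nme2, Mthfd2 and Mthfd1l, and Phgdh. No pyrimidine gene was called. The median over the 35 was 0.31, against 0.01 for all genes, with 31 above 0, and groups did not overlap for 17 with ETP higher (16.6% of all genes) and for 1, Prps2, with ETP lower (16.7% of all genes).

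Paics, which carries 2 middle steps of purine synthesis, was 308, 290 and 427 CPM in IgG ETP and 196, 198 and 189 in IgG DN3, and was higher by 0.81 (SE 0.144, adjusted p = 0.00118). Tk1 was 28.4, 42.2 and 60.7 against 14.9, 19.8 and 15.1 CPM, higher by 1.40 (SE 0.278, adjusted p = 0.00281), the largest difference of the 35. Dut was 116, 130.3 and 186 against 81.6, 90.8 and 84.6 CPM, higher by 0.75 (SE 0.166, adjusted p = 0.00574). None of these 3 overlapped, and each kept its call when any library was left out. Phgdh was 412, 414 and 419 against 287, 313 and 288 CPM, higher by 0.49 (SE 0.113, adjusted p = 0.00763), and Impdh2 238, 247 and 330 against 200.1, 171 and 184, higher by 0.55 (SE 0.140, adjusted p = 0.0137). Dctpp1 was 27.6, 17.5 and 38.1 against 16.3, 12.9 and 11.3 CPM, higher by 1.04 (SE 0.316, adjusted p = 0.0366).

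IgG ETP 3 was the highest ETP library for most called genes. Rrm1 was 212, 195 and 412 CPM in IgG ETP against 144, 152 and 148 in IgG DN3 (0.89, SE 0.246, adjusted p = 0.0375). Rrm2 was 88.1, 67.4 and 152 against 53.4, 58.3 and 54.5 (0.89, SE 0.238, adjusted p = 0.0230), and Tyms 58.1, 48.4 and 78.6 against 24.1, 45.4 and 39.1 (0.77, SE 0.241, adjusted p = 0.0410). Mthfd2 was 38.9, 40.2 and 53.1 against 25.6, 29.7 and 17.1 (0.87, SE 0.245, adjusted p = 0.0242). Cad (0.09), Ppat (0.04) and Shmt2 (0.43, adjusted p = 0.108) were not called. For these last 3 the ETP libraries, at 160 to 241, 99.5 to 151 and 101 to 174 CPM, overlapped the DN3 libraries. The count of called genes fell to 6 without IgG ETP 3, IgG DN3 1 or IgG DN3 2, and to 3 without IgG DN3 3. It was 1, Paics, when the spread was estimated over all pI-pC and antibody groups of both stages, deleted and antibody-treated groups included.

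**Figure D5:**
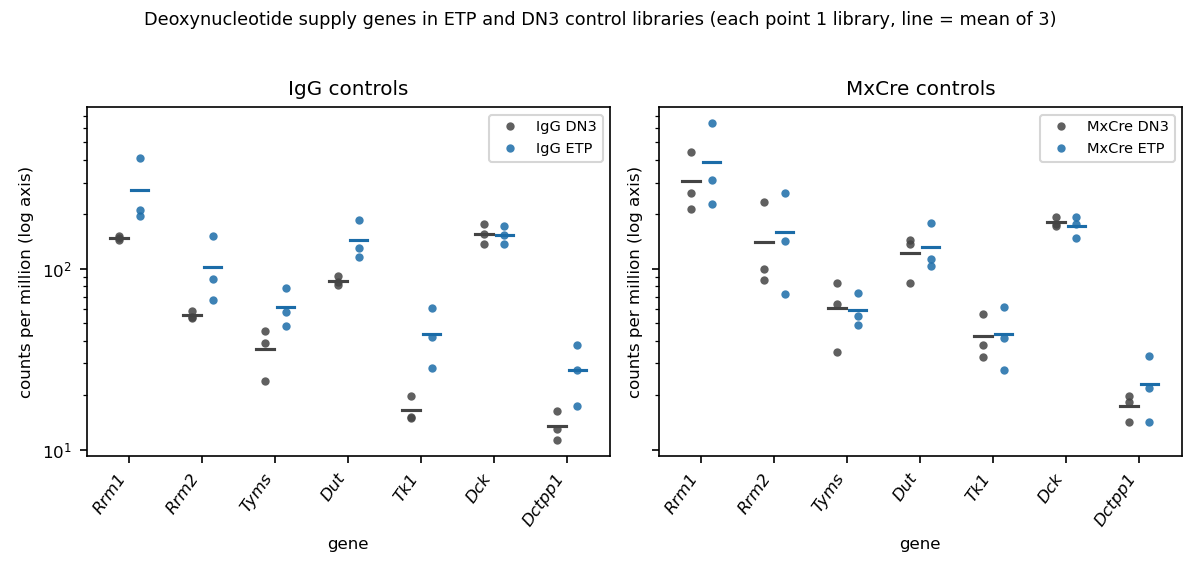
CPM on a log axis (vertical) of the 7 deoxynucleotide supply genes (horizontal) in IgG (left) and MxCre (right) control libraries, DN3 in grey and ETP in blue, with group means as lines. In IgG the ETP points lie above the DN3 points for all genes but Dck, whereas in MxCre the stages overlap for all 7.

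In MxCre libraries 0 of the 35 were called between the stages (2.99% of 12399 genes were called; 2 of the 35 and 16.7% of genes at an unadjusted p under 0.05). Paics was nearest, at 307, 416 and 617 CPM in ETP against 233, 231 and 284 in DN3, without overlap (0.87, SE 0.256, adjusted p = 0.115 in edgeR and 0.0160 in DESeq2, the 1 gene it called, against 5.18% of genes higher). Leaving out MxCre ETP 1 or MxCre ETP 3 gave 1 call each. Over all genes, 371 were called with every library and 735 without MxCre ETP 1. Prps1 was 68.3, 71.4 and 93.1 against 51.0, 44.4 and 61.0 CPM, also without overlap (0.60, adjusted p = 0.206), and these were the only 2 such genes (11.9% of all genes lay higher without overlap). Ctps was 36.2, 34.2 and 68.8 against 81.6, 61.8 and 70.5 CPM (-0.59, adjusted p = 0.362). The deoxynucleotide genes had a median of 0.14. The median over the 35 was 0.13, and -0.23 without MxCre ETP 3. The remaining examples, whose library values stand above, ranged from -0.27 for Cad to 0.55 for Impdh2 and all overlapped.

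The stage difference in IgG minus that in MxCre was not called for any of the 35 (0.0294% of 13585 genes were called; 3 of the 35 and 4.66% of genes at an unadjusted p under 0.05; DESeq2 0, against 0.188% of genes). Tk1 came nearest, at 1.35 (SE 0.464, unadjusted p = 0.00979, adjusted p = 1.00). The 2 control sets are therefore not shown to differ. Of 20 DNA replication genes, 11 were called higher in IgG ETP (median 0.84), where 7.6% of all genes were called higher. In MxCre ETP 0 of the 20 were called higher (median 0.43), where 2.99% of all genes were called in either direction. ETP libraries also held more myeloid marker RNA, 77.3 to 330.0 against 13.5 to 28.1 CPM in the IgG libraries, with 1 of 10 markers called higher and Elane, S100a8 and S100a9 at 0 counts in both stages. The summed level of double-positive and mature thymocyte markers was lower, 267 to 497 against 556 to 656 CPM, with 2 of 8 called higher and 1 lower. Thymic stroma markers were at 15.5 to 22.5 against 69.2 to 77.7 CPM. Krt5, Krt8, Foxn1, Col1a1, Col1a2 and Pdgfra were at 0 counts in both stages, so this sum was that of Epcam alone. Malat1 took 0.432% to 0.788% of counts in IgG ETP and 1.06% to 1.39% in IgG DN3, and Rn45s 8.92% to 13.8% against 2.75% to 3.74%. Total counts were 9456818 to 14385245 in IgG ETP and 15277568 to 18745922 in IgG DN3. None of these overlapped. In the MxCre libraries Rn45s took 14.8% to 16.3% in ETP and 6.76% to 8.82% in DN3, without overlap. The part of these in the result was not tested.

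Of the 56 other pathway genes tested, 5 were called between IgG ETP and IgG DN3, where 7.6% of all genes were called higher and 7.12% lower. Samhd1, which degrades deoxynucleoside triphosphates, showed the widest gap. It had 410, 477 and 1095 counts in the IgG ETP libraries and 60, 42 and 4 in IgG DN3 (log2 fold change 4.77, SE 0.754, adjusted p = 0.00582), and 733, 1962 and 1168 counts in MxCre ETP against 11, 4 and 10 in MxCre DN3 (7.31, SE 0.583, adjusted p = 0.000508). Every ETP library lay far above every DN3 library in both control sets, and Samhd1 was the only gene of the pathway list called in MxCre. There, 2.99% of all genes were called in either direction. Nt5c, a nucleotidase, was higher in IgG ETP by 0.89 (adjusted p = 0.0152) and the nucleoside carrier Slc29a1 by 0.52 (adjusted p = 0.0260). Mtfmt, which formylates the mitochondrial initiator, was lower by 1.02 (log2 fold change -1.02, adjusted p = 0.0431) and the carrier Slc29a3 had -0.48 (adjusted p = 0.0449). The median over the 56 tested genes of this list was 0.21.

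Among themselves the 35 genes spanned a wide range of levels per kilobase of transcript. In IgG DN3 the highest were Phgdh at 156 ± 7.8 CPM per kilobase (SD, n = 3), Impdh2 at 99.6 ± 7.8 and Paics at 78.3 ± 2.0, and the lowest Psph at 8.6, Dhodh at 8.7 and Tyms at 11.4. Prps2 and Impdh1 followed Paics at 78.1 and 77.9, within the spread of these libraries. Phgdh and Impdh2 led in IgG ETP too, at 219 ± 1.9 and 146 ± 27.3, and Phgdh in TamCre DN3 and TamCre ETP, at 409 ± 47.4 and 156 ± 1.9. Psph and Dhodh were the lowest in IgG ETP and TamCre ETP, and Psph and Gmps in TamCre DN3. Thus, by group mean per kilobase, the transcript of the first serine enzyme was the most abundant of the set in these groups of both stages. That of the last serine enzyme was among the least abundant. In TamCre DN3 the lead of Phgdh over Nme2 lay within the spread of the libraries. The mitochondrial Shmt2 exceeded the cytosolic Shmt1 per kilobase in each library, by 1.62 to 5.43 times, and Mthfd1l stayed below Mthfd1, at 0.256 to 0.918 times.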

How the data were processed

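RNA of sorted ETP and DN3 thymocytes was sequenced in 40 libraries of 12 groups, 3 or 4 per group. The submitters' processing notes name, with no roles, Cuffdiff 2.1.1, Cufflinks, Bowtie2 2.1.0.0, TopHat2 2.0.9, FastQC 0.10.0 and the build mm10. The authors deposited 3 tables of estimated counts per gene. Between 0.507% and 1.23% of values per library were not whole (tolerance 0.01), and all were rounded before testing. Kits, per the labels, were SMARTer Ultra low with RiboGone for pI-pC and antibody libraries, TruSeq mRNA for tamoxifen DN3 and SMARTer Stranded Pico for tamoxifen ETP. Ribosomal protein genes, matched by symbol, numbered 84 in the first table and 0 in the tamoxifen tables. CPM of the tamoxifen libraries therefore have a different base from those of the others.

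Each pair was fitted with edgeR 4.0.16 (R 4.3.3; TMM, filterByExpr with a minimum count of 10 and total of 15, robust quasi-likelihood test) and adjusted by Benjamini-Hochberg over all genes tested, with a threshold of 0.05. Differences of effects used interaction terms within a table. Alternatives were DESeq2 1.42.0, its size factors in edgeR, no filter, a replicate block, a shared spread and leaving out each library. The difference between the IgG and MxCre stage effects was added after the data were seen. Library values were given for Impdh2, Ppat, Cad, Tyms, Rrm2, Shmt2, Mthfd2 and Phgdh, for called genes (in the stage comparisons the 5 with the lowest p) and for the 3 largest changes of each pair; other named genes were chosen after their values were seen. Levels per kilobase used GENCODE M21 transcripts on GRCm38. The fits were tested on simulated counts. The 35 genes and all lists were chosen with earlier results of these data known. No pair of libraries agreed within sampling noise. A list of cell markers is not reported here.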

Additional observations from a re-analysis of the deposited data

Results flagged for a closer look

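Each of the 35 genes was looked at in the tamoxifen groups, the only ones with 4 libraries. In 9 of these 140 gene-by-group sets, 1 library lay far from the other 3 by Dixon's criterion at 95%, where chance gives about 1 in 20. DeltaTamCre DN3 2 was high for Atic (264.5 CPM against 201.6 to 210.6 in the other 3), Gmps (179.8 against 137.0 to 141.2) and Mthfd1l (123.9 against 92.47 to 97.28). TamCre DN3 2 was low for Adss (161.6 against 185.4 to 187.5) and Rrm1 (432.4 against 578.3 to 590.1). TamCre DN3 1 was high for Dctpp1 (149.6 against 117.2 to 122.4). In ETP, TamCre ETP 4 was low for Gart (169.7 against 186.7 to 187.9), TamCre ETP 2 was high for Phgdh (300.8 against 293.1 to 294.2), and DeltaTamCre ETP 2 was high for Dhodh (15.58 against 9.41 to 9.885). None of these 9 genes was called by edgeR in the comparison concerned, and DESeq2 called Dctpp1.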

How the results depend on the processing

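The count of the 35 genes called in DeltaMxCre DN3 was 1, and 5 with DESeq2, 4 with no filter on low counts and 3 with a spread shared by all groups of the stage. In DeltaTamCre DN3 it was 0, and 5 with DESeq2. Between MxCre ETP and MxCre DN3 it was 0, and 1 with DESeq2, with the replicate block and with the shared spread. Between IgG ETP and IgG DN3 it was 12, and 1 with the shared spread. In both stage comparisons that spread was taken over all pI-pC and antibody groups of both stages. For the deletion effect minus the antibody effect in DN3 it was 0, and 1 with DESeq2. Leaving out 1 library gave 0 to 1 in DeltaMxCre DN3, 6 to 18 in AntiNRR DN3, 0 to 1 between the MxCre stages, 3 to 13 between the IgG stages and 0 to 2 for the deletion minus the antibody effect in DN3. The other counts of called members were 0 under every alternative, and no called result changed sign. The causes were not tested.

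Over all genes, counts moved by more than 1.5 times from 183 to 520 in DeltaMxCre DN3 (12 to 403 with a library left out), from 5 to 107 in DeltaMxCre ETP (0 to 17 with a library left out), from 11 to between 0 and 412 in DeltaTamCre DN3 (0 to 8), from 0 to 8 in DeltaTamCre ETP, from 0 to 24 in AntiNRR ETP (0 to 5), from 710 to 351 in AntiNRR DN3 without IgG DN3 3 (353 without IgG DN3 2), from 371 to 1474 between the MxCre stages (135 without MxCre ETP 2, 735 without MxCre ETP 1) and from 1873 to 936 between the IgG stages (941 without IgG DN3 3). For the differences of effects they moved from 167 to 343 (deletion minus antibody, DN3; 99 without IgG DN3 2 and 290 without MxCre DN3 3), from 11 to 94 (the same, ETP; 5 to 26 with a library left out), from 1 to 56 (deletion, ETP minus DN3; 0 to 12) and from 0 to 7 (antibody, ETP minus DN3; 0 to 3). Same-numbered libraries did not deviate together in every pair (correlations of -0.03 to 0.10 in the antibody DN3 pairs), so the main fits did not pair them. Their correlations were 0.06 to 0.34 between the MxCre stages and 0.07 to 0.28 in tamoxifen ETP. Libraries of different numbers reached 0.21 and 0.41 there. The check cannot show whether same-numbered ETP and DN3 libraries came from the same mouse. With the replicate block AntiNRR DN3 had 15 calls and the IgG stage comparison 10. For named genes under settings other than leaving out a library, 622 values were rated unchanged, 20 lost the call and 16 gained it. A called gene was unchanged if still called in the same direction. A gene not called was unchanged if still not called and within the SE of its main log2 fold change, whatever its sign.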
